A study of Mus musculus with 6 samples.

Results

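The genes described here encode the steps that take glucose into the cell, break it down to pyruvate, exchange lactate and admit pyruvate to the mitochondrion. They were taken by gene symbol from a list of 36 symbols in which Pkm and Pkm2 name 1 gene. All 35 genes of the list were found among the 22692 gene symbols of the deposited tables, pyruvate kinase under its older symbol Pkm2. Of the 35, 33 reached at least 1 RPKM in 3 or more libraries and were tested, and Pfkfb1 and Eno1 did not. The list was drawn by function, with earlier results of these data known.

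RNA sequencing was done on whole eyes of female C57BL/6J mice aged 4 weeks, with no genetic change or treatment in either group. Eyes were taken 1.5 h or 9.0 h after light onset, with 3 libraries at each time, each made from pooled RNA of 5 mice. The labels do not say if each pool came from its own set of mice, and a p-value here covers library-to-library spread alone, some of which may be technical. A whole eye mixes retina, pigment epithelium, lens, cornea, sclera and attached muscle. In such bulk samples fewer cells of a type and less RNA per cell cannot be told apart.

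Glycolysis splits glucose in the cytosol into pyruvate, with a small yield of ATP. Pyruvate is then reduced to lactate by lactate dehydrogenase or enters the mitochondrion, where the pyruvate dehydrogenase complex turns it into acetyl-CoA. Photoreceptors of the retina are known for making lactate from glucose even when oxygen is present, and lens fibre cells, which lose their mitochondria, depend on glycolysis. Fast muscle uses isozymes of its own for several steps.

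Depth was uneven. The libraries held an estimated 28950000, 12690000 and 13000000 reads early (replicates 1 to 3 of 1.5 h) and 31720000, 30060000 and 24040000 late, so 1 RPKM of a 2 kb transcript stood for 25.4 to 63.4 reads. RPKM is a read count scaled to gene length and library size, and levels of different genes are compared on that scale. The 1.5 h replicate 1 library stood apart: its 19 tested skeletal muscle markers were lower than the 6-library average by 0.67 log2 units, and its 20 lens markers by 0.71. Its 10 stroma and sclera markers were lower by 0.82 and its 3 tested fat markers by 0.90. The fat markers were also low in 9.0 h replicates 1 and 3 (−0.46 and −0.57). Its 2 tested blood markers were lower by 0.89, but they were at −0.83 in 1.5 h replicate 2 and 1.70 in 1.5 h replicate 3. The blood markers thus did not set this library apart. The 15 rod photoreceptor markers were higher than their 6-library average by 0.02 in 1.5 h replicate 1. Summed RPKM of the lens markers was 125100 there and 183800 to 252300 in the other 5 libraries, and that of the muscle markers 1185 and 1889 to 2313.

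Much of the sequence of some glycolytic transcripts occurs again elsewhere in the genome. Processed pseudogenes are copies of a spliced messenger RNA that were written back into the genome. For each member, the annotated transcript with the longest coding sequence was cut into overlapping windows of 50 bases. Transcripts annotated as retained intron, nonsense-mediated decay or processed transcript were left out. The share of windows that also occur, letter for letter, in a transcript of another locus was counted. Gapdh shared 82.5% of its windows. Counted over all Gapdh transcripts kept, 217 other loci shared a window, 213 of them annotated pseudogenes. Eno1 shared 72.2%, Pgk1 68.0% and Pgam1 41.5%. Between 7.51% and 30.5% were shared by Pdhb, Ldhb, Gpi1, Ldha, Tpi1 and pyruvate kinase, and under 5% by each of the other 25 members. The first coding bases of 3 of these genes show what a short read meets. The pseudogenes Gm7336 (for Gapdh, on chromosome 7), Pgk1-rs7 (for Pgk1, on chromosome 12) and Pgam1-ps2 (for Pgam1, on chromosome 7) hold exactly the 90 letters printed, and their alignments to the coding sequence, 1002, 1253 and 765 bases long, had no mismatch.
Gapdh, coding bases 1 to 90: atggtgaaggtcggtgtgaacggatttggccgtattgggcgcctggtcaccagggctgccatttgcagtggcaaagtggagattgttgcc
Pgk1, coding bases 2 to 91: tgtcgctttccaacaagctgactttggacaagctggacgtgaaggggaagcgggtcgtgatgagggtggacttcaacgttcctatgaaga
Pgam1, coding bases 1 to 90: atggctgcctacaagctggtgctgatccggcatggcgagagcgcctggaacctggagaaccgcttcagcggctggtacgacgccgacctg

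The 4 members with the highest shared percentages are listed at low values. Gapdh, glyceraldehyde 3-phosphate dehydrogenase, had 5.09, 1.72 and 6.53 RPKM at 1.5 h and 6.52, 6.05 and 6.83 at 9.0 h. Eno1, the enolase of most tissues, had 0.086 to 0.265 RPKM over the 6 libraries. By comparison Tpi1, which acts one step before Gapdh and has 7.51% shared windows, averaged 346.3 RPKM. Gm5506 (now Eno1b), a copy of Eno1 whose coding sequence was 99.4% identical, had 0.192 to 2.40 RPKM. How reads with several matches were counted is not given in the sources used here, and the part of this in the levels was not tested. The levels of these 4 genes are uncertain, and statements on the order of levels leave them out.

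**Figure D1:**
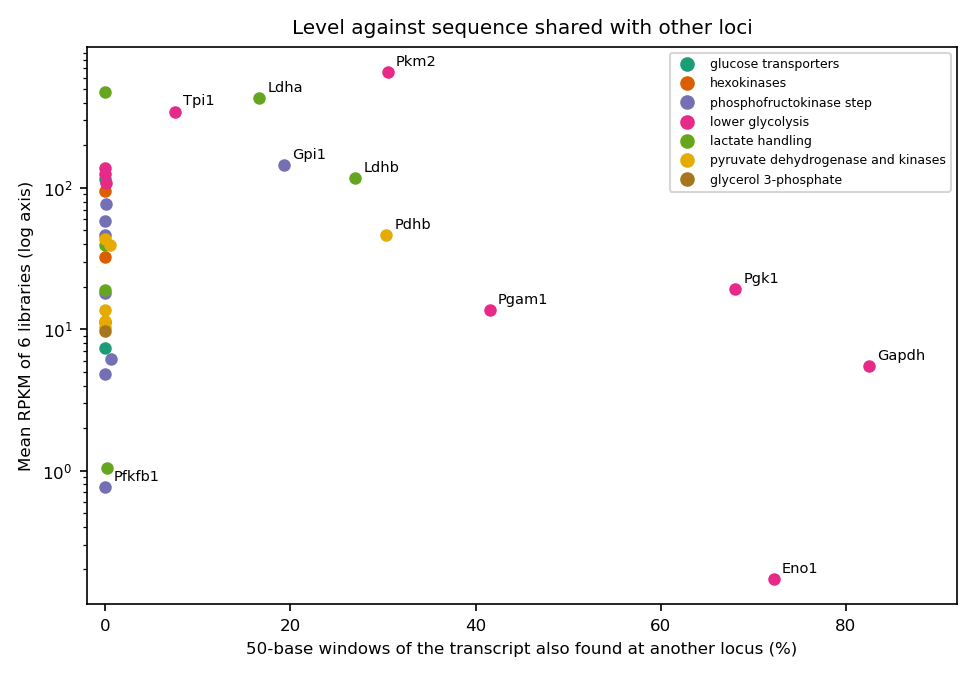
Mean RPKM over the 6 libraries (log axis) against the percentage of 50-base windows of the transcript that also occur at another locus, 1 point per gene, coloured by role. Gapdh, Eno1, Pgk1 and Pgam1 lie at the right with mean levels of 0.172 to 19.3 RPKM, while pyruvate kinase, with 30.5% shared, has 657.3.

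No member changed between the times at a limma adjusted p of 0.05. Over all 13490 genes tested, 0.148% were called higher and 0.0741% lower at 9.0 h (limma, Benjamini-Hochberg adjustment over all tested genes, two-sided) (0.222% in all). At an unadjusted p of 0.05, 2 of 33 members were higher (Pgam1 and Gpi1) against 6.47% of all genes tested, and 2 were lower (Pfkfb2 and Pfkp) against 4.58%. That is 4 of 33 in either direction, near the 11.1% of all genes. Fold changes are 9.0 h minus 1.5 h on the log2(RPKM + 0.1) scale, and their standard errors (SE) ranged from 0.13 to 0.43 among members. Of the 33, 22 had a positive and 11 a negative log2 fold change, with a median of 0.16 against 0.00 (−0.003) over all genes tested, of which 49.4% were positive. With quantile normalization the members' median was 0.04, and scaled without crystallins it was 0.08, where that of all genes was −0.08.

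Members whose 3 values at one time all lay beyond the 3 at the other were mostly higher at 9.0 h. There were 8 of 33 with no overlap and higher values (Gpi1, Pfkfb3, Tpi1, Pgam1, Pkm2, Ldhb, Bsg and Pdk2), where 9.78% of all genes tested were so. A further 2 were lower (Pfkfb2 and Pfkp), where 8.41% of all genes were, and 18.2% of all genes had no overlap in either direction. Sequence copies moved with this count. Of the 9 tested members with at least 5% of windows shared, 9 had a positive log2 fold change and 5 had no overlap, while of the 24 others 13 were positive and 3 had no overlap and higher values. The same held over the whole table: of 1001 tested genes with at least 5% of windows shared, 77.4% were positive and 26.8% had no overlap and higher values, against 46.9% and 8.25% of the 11229 others. This split was made after the values were seen, and its part in the members' values was not tested. Levels of the genes on its sides were not compared. With a filter at 5 RPKM, 54.7% of all genes tested were positive, against 49.4% in the main fit. Without 1.5 h replicate 1, 10 members were higher and 7 lower with no overlap, where 18.8% and 19.4% of all genes tested were.

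**Figure D2:**
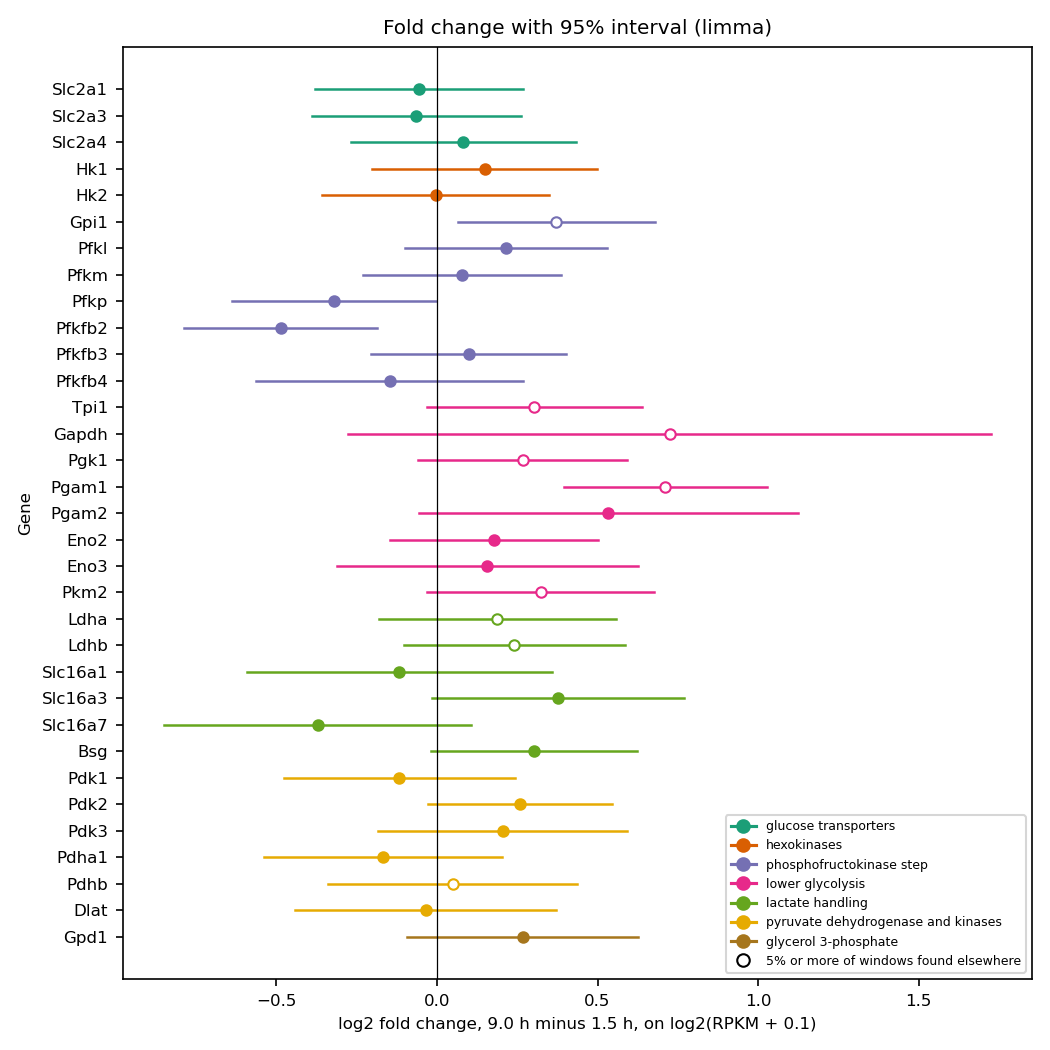
Log2 fold change of the 33 tested genes (9.0 h minus 1.5 h, on log2(RPKM + 0.1)) with limma's 95% interval, coloured by role, with open points for genes that share at least 5% of windows with another locus. All 9 open points lie above 0, and Pgam1, at 0.71, is the one furthest from 0 relative to its interval.

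The glucose transporters did not differ between the times beyond the spread of the libraries. Slc2a1 (GLUT1), the glucose transporter of retina, pigment epithelium and blood vessels, had 114, 122 and 117 RPKM at 1.5 h and 126, 98.1 and 116 at 9.0 h. The groups overlapped, and the log2 fold change was −0.06 with a 95% interval of −0.38 to 0.27. Slc2a3 (GLUT3), the neuronal transporter, had 11.5 ± 1.01 and 11.01 ± 1.35 RPKM (mean ± SD, n = 3 each). Slc2a4 (GLUT4), the insulin-regulated transporter of muscle and fat, had 7.15 ± 1.12 and 7.52 ± 0.51 RPKM. Slc2a1 made up 86.3% ± 1.23 of the summed RPKM of the 3 transporters at 1.5 h and 85.9% ± 1.68 at 9.0 h.

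Hexokinase traps glucose in the cell as glucose 6-phosphate. Hk1, the main hexokinase of brain and retina, had 90.5 ± 10.7 RPKM at 1.5 h and 100.4 ± 13.7 at 9.0 h. Hk2, which photoreceptors also use and insulin-sensitive tissues favour, had 32.2 ± 2.30 and 32.4 ± 5.94 RPKM, with a log2 fold change of 0.00 (−0.004) and an interval of −0.36 to 0.35. The share of Hk2 in the summed RPKM of both was 25.3%, 27.2% and 26.3% at 1.5 h and 24.7%, 23.0% and 25.2% at 9.0 h. Every 9.0 h value was below every 1.5 h value, by a narrow margin, and the exact permutation test gave two-sided p = 0.1, the smallest that 3 libraries against 3 allow (adjusted p = 0.5 over 10 shares).

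Around the phosphofructokinase step, members went in both directions. Gpi1, which turns glucose 6-phosphate into fructose 6-phosphate, had 120, 130.4 and 129.9 RPKM at 1.5 h and 174, 153 and 165 at 9.0 h. The times did not overlap, and the log2 fold change was 0.37 ± 0.14 (SE, limma adjusted p = 0.357), or 0.23 (0.225) with quantile normalization. The gene shared 19.3% of its windows with other loci. Of the 3 phosphofructokinase subunits, Pfkl (liver type) had 71.7 ± 5.59 and 83.3 ± 8.08 RPKM and Pfkm (muscle type) 56.5 ± 6.22 and 59.4 ± 2.63, both with overlap. Pfkp (platelet type) went the other way, with 48.7, 58.1 and 47.9 RPKM at 1.5 h and 44.7, 37.1 and 42.0 at 9.0 h. The times did not overlap, with a difference of −0.32 ± 0.14 on the log2 scale (limma adjusted p = 0.447).

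The Pfkfb genes encode the bifunctional enzymes that make and remove fructose 2,6-bisphosphate, the activator of phosphofructokinase. Pfkfb2, the form first known from heart, had 23.3, 20.0 and 19.7 RPKM at 1.5 h and 16.2, 14.7 and 14.0 at 9.0 h. All 3 values at 9.0 h lay below those at 1.5 h, with a log2 fold change of −0.49 ± 0.14, the lowest among members (limma adjusted p = 0.223). None of its windows occurred at another locus. Pfkfb3, the inducible form, had 6.07, 6.13 and 5.54 RPKM and then 6.63, 6.19 and 6.19, a difference of 0.10 ± 0.14 on the log2 scale whose groups missed overlapping by less than 0.1 RPKM. Scaled without crystallins it was 0.02. Pfkfb4 had 5.15 ± 1.34 and 4.56 ± 0.35 RPKM, and Pfkfb1, the liver and muscle form, stayed at 0.445 to 1.00 RPKM.

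Lower glycolysis, from triose phosphate to pyruvate, was the group in which all 8 tested members had positive fold changes, with a median of 0.31 on the log2 scale (7 of 8 without 1.5 h replicate 1). Over all genes tested 49.4% were positive. None of the 8 was called, and 1 was higher at an unadjusted p of 0.05, where 6.47% of all genes were. Of the 8, 5 (Tpi1, Gapdh, Pgk1, Pgam1 and pyruvate kinase) share at least 5% of their windows, a class of which 77.4% of all genes tested were positive. Tissue marker lists went in both directions between the times. The 20 lens markers had a median log2 fold change of 0.42, with 17 positive and 8 higher without overlap. The 10 stroma and sclera markers had 0.65, with 6 higher without overlap, where 9.78% of all genes tested were. The 15 rod photoreceptor markers had −0.11, with 11 negative and 4 lower without overlap. The 9 cone photoreceptor markers had −0.21, with 8 negative and 4 lower without overlap, where 8.41% of all genes were. The 9 tested pigment epithelium markers had −0.17. No marker of these lists was called. Of the lens markers with the highest means, Crybb2 averaged 35950 RPKM early and 34020 late, and Cryaa 25760 and 42780. The part of lens and stroma content in the members' values was not tested. Pgam1, the general phosphoglycerate mutase, had 9.02, 11.6 and 10.4 RPKM at 1.5 h and 16.2, 17.8 and 16.9 at 9.0 h. The 2 times were well apart, with a log2 fold change of 0.71 ± 0.14 and an interval of 0.40 to 1.03 (limma adjusted p = 0.0935). It passed without 1.5 h replicate 1 (0.62, limma adjusted p = 0.00394) and without 1.5 h replicate 2 (0.80, limma adjusted p = 0.0481), but the first of these fits called 9.11% of all genes. The gene shares 41.5% of its windows with pseudogenes, as printed above, and the part of this in the difference was not tested.

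Tpi1, triose phosphate isomerase, had 327, 328 and 276 RPKM at 1.5 h and 379, 362 and 406 at 9.0 h, a log2 fold change of 0.30 ± 0.15 with no overlap (limma adjusted p = 0.499), and of 0.12 with quantile normalization. Pyruvate kinase, listed as Pkm2 and, Gapdh, Eno1, Pgk1 and Pgam1 left out, the member with the highest mean level, had 607, 589 and 553 RPKM and then 790, 641 and 764. The difference was 0.32 ± 0.16, again with no overlap (limma adjusted p = 0.497), and 0.17 with quantile normalization. The tables hold 1 value for the gene, so its M1 and M2 splice forms are not separated. Pgk1, which makes ATP from 1,3-bisphosphoglycerate, had 17.6 ± 2.41 and 21.1 ± 1.89 RPKM with overlap. The fold change of Gapdh, 0.72 ± 0.43, had the widest interval of all members (−0.28 to 1.72) and was 0.16 without 1.5 h replicate 2, whose level was 1.72 RPKM.

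The values of the muscle-type enzymes varied most in 1 library. Pgam2, the muscle phosphoglycerate mutase, had 61.0, 116 and 140 RPKM at 1.5 h and 125, 156 and 154 at 9.0 h, and Eno3, the muscle enolase, had 89.5, 167 and 141 and then 139, 144 and 146. In both genes the lowest value was that of 1.5 h replicate 1, the library with the lowest summed RPKM of muscle markers. On the log2 scale Pgam2 differed by 0.53 ± 0.27 (limma adjusted p = 0.499) and Eno3 by 0.16 ± 0.21 (limma adjusted p = 0.837). Leaving that library out gave 0.18 for Pgam2 and −0.10 for Eno3. Among the muscle markers themselves, 1 of 19 was called higher, where 0.148% of all genes were. It was Tcap, at 65.3 and 163.8 RPKM (early and late means, limma adjusted p = 0.0224). The median log2 fold change of the muscle markers was 0.39. The 2 with the highest means were not called: Acta1 had 277 and 499.4 RPKM and Mylpf 211.5 and 238.2 (early and late means). The part of muscle content in Pgam2 and Eno3 was not tested. Eno2, the neuronal enolase, kept to another pattern, with 108, 91.0 and 106 RPKM and then 126, 105 and 113, where 1.5 h replicate 1 was not the lowest.

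**Figure D3:**
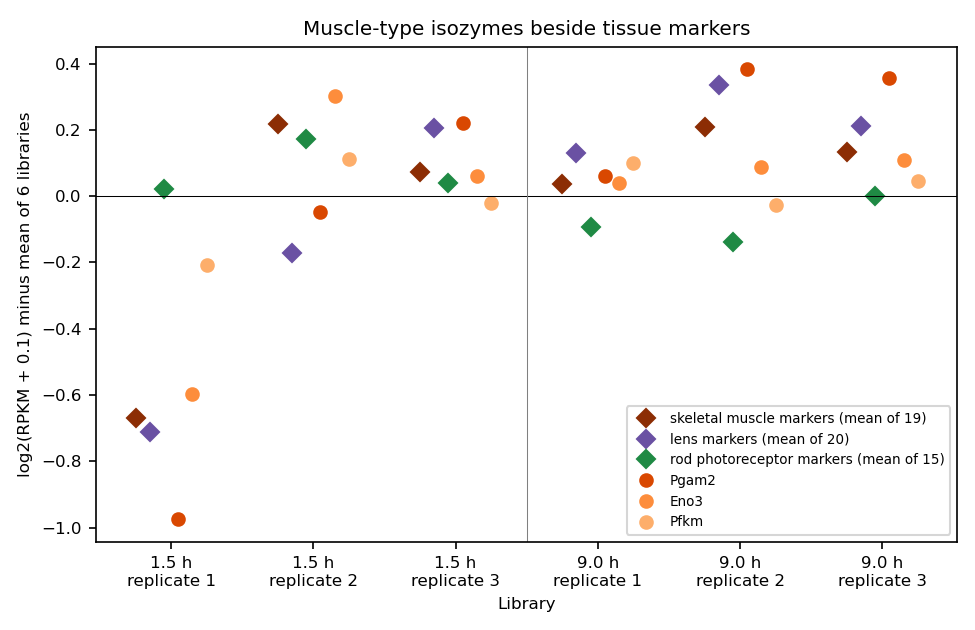
Deviation of log2(RPKM + 0.1) from the mean of the 6 libraries, by library, for the muscle-type isozymes Pgam2, Eno3 and Pfkm (circles) and for the mean of skeletal muscle, lens and rod markers (diamonds). In 1.5 h replicate 1 the muscle and lens markers lie 0.67 and 0.71 below their means, Pgam2 and Eno3 lie low with them, and the rod markers are at 0.02.

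The lactate genes ranged in mean level from 1.05 RPKM (Slc16a7) to 478.1 (Bsg). Ldha, the lactate dehydrogenase subunit that favours lactate production, had 411, 451 and 346 RPKM at 1.5 h and 485, 403 and 484 at 9.0 h, with overlap and a log2 fold change of 0.19 (interval −0.18 to 0.56). Ldhb, the subunit that favours lactate use, had 121, 112 and 89.2 and then 124, 121.5 and 133 RPKM. Its times did not overlap, though 9.0 h replicate 2 exceeded 1.5 h replicate 1 by under 1 RPKM (0.24 ± 0.16, limma adjusted p = 0.621). Its log2 fold change was 0.11 without 1.5 h replicate 3 and 0.07 with quantile normalization. Ldhb was 21.1% ± 1.50 of the summed RPKM of both at 1.5 h and 21.7% ± 1.45 at 9.0 h (exact permutation test, two-sided, p = 0.6). Both genes share windows with pseudogenes, Ldha 16.6% and Ldhb 27.0%.

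The monocarboxylate transporters carry lactate and pyruvate across membranes, and Bsg (basigin) is the partner that brings Slc16a1 and Slc16a3 to the cell surface. Bsg had 430.2, 423 and 430.7 RPKM at 1.5 h and 525, 505 and 554 at 9.0 h. The 3 early values lay within 8 RPKM of each other and all late values were above them, with a log2 fold change of 0.30 ± 0.15 (interval −0.02 to 0.62, limma adjusted p = 0.483). With quantile normalization it was 0.05 (0.047, limma adjusted p = 0.929). None of its windows was shared with another locus. Slc16a3 (MCT4), typical of cells that export lactate, had 15.0, 13.7 and 21.1 RPKM and then 23.7, 19.1 and 21.2, with a log2 fold change of 0.38 ± 0.18 (limma adjusted p = 0.471). The 1.5 h replicate 3 value lay among the late ones. Slc16a1 (MCT1) had 41.8 ± 12.5 and 37.4 ± 3.87 RPKM, with its lowest value, 27.9, in 1.5 h replicate 1. Slc16a7 (MCT2), a neuronal form of high affinity, was near 1 RPKM (1.19 ± 0.18 and 0.90 ± 0.18).

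At the entry to the mitochondrion, the 3 member kinases that switch the pyruvate dehydrogenase complex off did not move together. Pdk2 had 36.7, 42.4 and 40.2 RPKM at 1.5 h and 48.5, 45.7 and 48.2 at 9.0 h, with no overlap and a log2 fold change of 0.26 ± 0.13 (limma adjusted p = 0.505), or 0.17 with quantile normalization. Pdk1, the kinase known as a hypoxia target, had 11.9 ± 1.84 and 10.96 ± 1.29 RPKM, and Pdk3 9.73 ± 1.74 and 11.2 ± 1.67. In the sum of the 3, Pdk1 took 18.1%, 19.1% and 20.9% at 1.5 h and 16.3%, 16.9% and 14.0% at 9.0 h. Its share did not overlap between the times (exact permutation test, two-sided, p = 0.1; adjusted p = 0.5). The 3 member subunits of the complex overlapped between the times: Pdha1 had 42.2 ± 8.12 and 37.3 ± 3.99 RPKM, Pdhb 46.1 ± 10.5 and 47.1 ± 4.60, and Dlat, the E2 core, 13.9 ± 3.34 and 13.3 ± 0.57. Each of the 3 had its lowest 1.5 h value in replicate 1. Pdhx, a subunit outside the member list, had 16.5 ± 2.73 and 13.6 ± 1.11 RPKM, with overlap (log2 fold change −0.27, limma adjusted p = 0.56). Gpd1, which links glycolysis to glycerol 3-phosphate and lipid, had 8.85 ± 1.72 and 10.6 ± 0.65 RPKM.

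**Figure D4:**
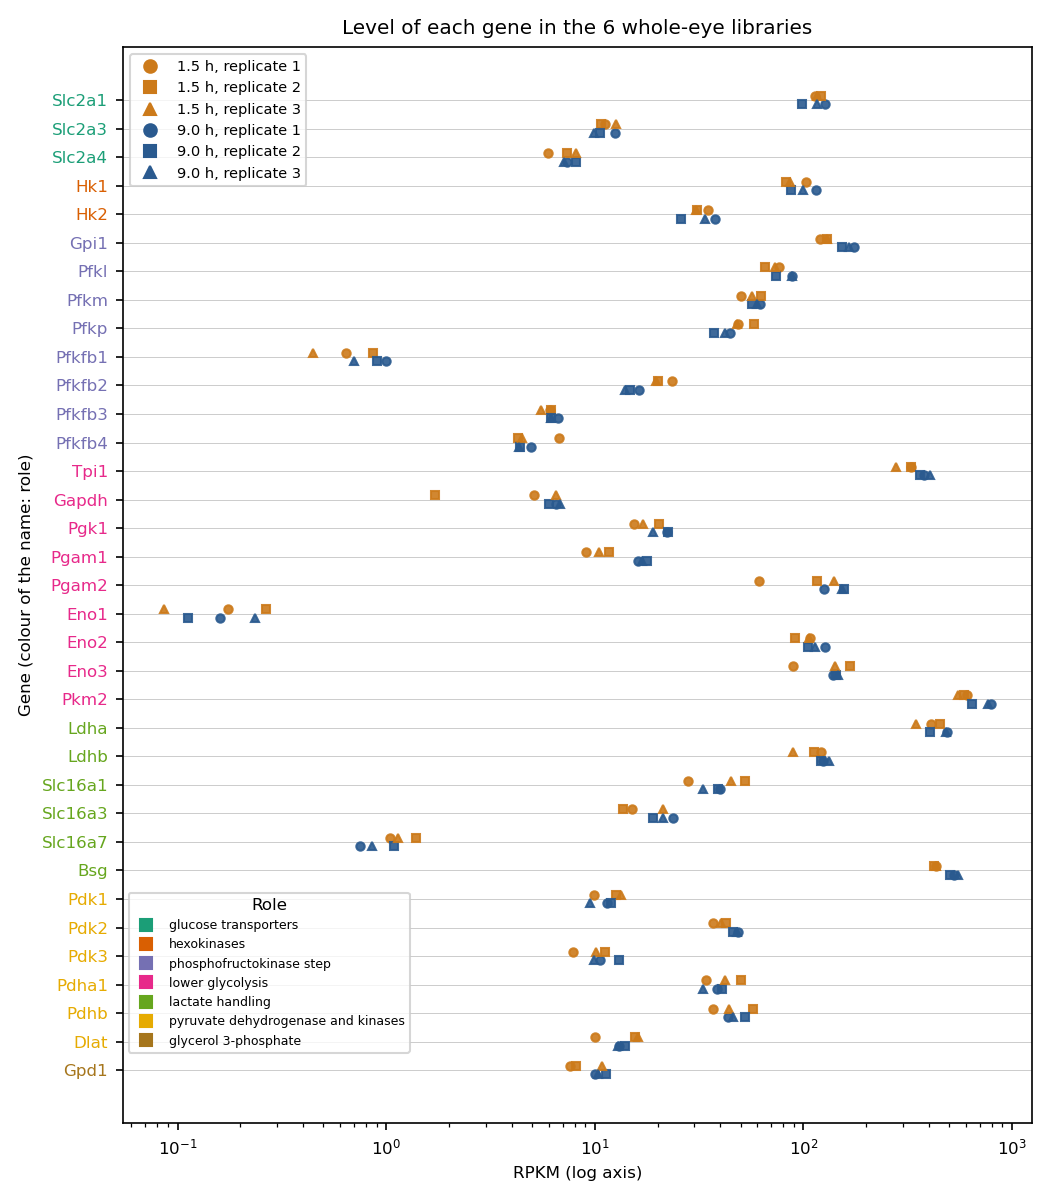
RPKM of each of the 35 genes in the 6 libraries on a log axis, with 1.5 h in orange above 9.0 h in blue, marker shape by replicate and gene names coloured by role. Pyruvate kinase, Bsg, Ldha and Tpi1 lie furthest right, Eno1 is listed at 0.086 to 0.265 RPKM, and the times are separated in 10 genes: Gpi1, Pfkp, Pfkfb2, Pfkfb3, Tpi1, Pgam1, pyruvate kinase, Ldhb, Bsg and Pdk2.

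For 8 of the 10 isozyme shares compared, the times overlapped. Pfkm was 31.4% ± 2.55 and 32.3% ± 1.25 of the phosphofructokinase sum. Slc16a1 was 69.3% ± 7.37 and 62.7% ± 3.09 of the sum of Slc16a1, Slc16a3 and Slc16a7 (exact permutation test, two-sided, p = 0.2; adjusted p = 0.5). That sum leaves out Slc16a8, a further transporter of the family, which had 34.6 ± 5.48 and 38.9 ± 5.65 RPKM. The Slc16a1 share is thus one among the listed members only. Pdk2 was 64.9% ± 2.32 and 68.2% ± 3.37 of the sum of Pdk1, Pdk2 and Pdk3, which leaves out Pdk4. Eno3 was 55.7% ± 9.77 and 55.5% ± 2.81 of the enolase sum, and Eno2 44.2% ± 9.78 and 44.4% ± 2.81. Pgam2 was 90.4% ± 3.01 and 89.5% ± 0.81 of both mutases. The enolase and mutase shares are those of the tables, in which Eno1 and Pgam1 are uncertain. The shares without overlap were those of Hk2 and Pdk1, described above. For levels, 18.2% of all genes tested had no overlap in either direction.

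**Figure D5:**
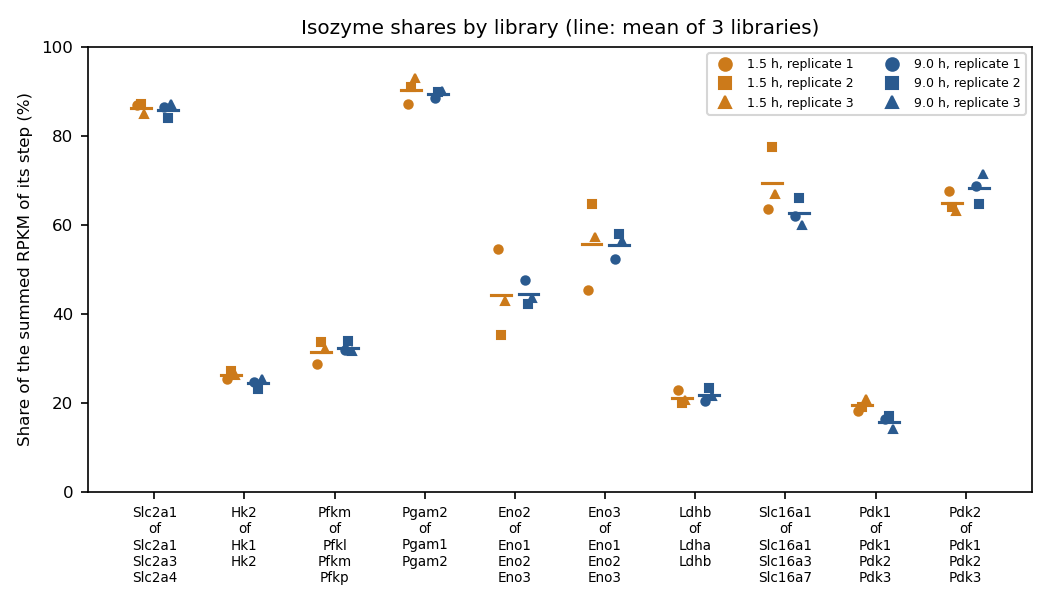
Share of 1 isozyme in the summed RPKM of its step (percent), 1 point per library, with a line at the mean of 3 libraries for 1.5 h (orange) and 9.0 h (blue). The times are separate for Hk2 (means 26.3% and 24.3%) and Pdk1 (19.4% and 15.7%) and overlap for the other 8 shares. For levels, the times were separate in 18.2% of all genes tested.

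Of 80 further genes of glucose metabolism found in the tables, 66 were tested and none was called by limma. At an unadjusted p of 0.05, 5 were higher and 6 lower, where 6.47% and 4.58% of all genes tested were, and their median log2 fold change was 0.00 (0.002). The genes of further glycolytic steps and sugar entry (16 tested) had a median of 0.04. Aldoa, an aldolase, had 810.5 ± 48.9 RPKM at 1.5 h and 1070 ± 91.4 at 9.0 h with no overlap (log2 fold change 0.40, limma adjusted p = 0.398), and Aldoc 221 ± 47.0 and 246 ± 11.5. Genes of further lactate and pyruvate handling (14 tested, median −0.14) included Brp44 (Mpc2), a subunit of the mitochondrial pyruvate carrier, with 54.4 ± 8.31 and 61.2 ± 15.4 RPKM. Dld, the E3 subunit that the pyruvate dehydrogenase complex shares, had 40.1 ± 12.2 and 33.5 ± 5.23. Gluconeogenic and glycogen genes (15 tested) had a median of 0.01, with Gyg (glycogenin) at 59.2 ± 14.1 and 61.0 ± 7.05 RPKM and Pygm (muscle glycogen phosphorylase) at 41.8 ± 9.01 and 50.9 ± 3.24. Pentose phosphate genes (8 tested) had 0.13, with the transketolase Tkt at 254 ± 31.3 and 276 ± 27.8 RPKM and Taldo1 (transaldolase) at 92.9 ± 24.4 and 87.7 ± 9.54. Genes of the glucose and hypoxia response (13 tested) had −0.02, with Hif1a, the oxygen-regulated factor that drives many glycolytic genes, at 80.6 ± 17.4 and 81.0 ± 11.6 RPKM and Epas1, its relative HIF2 alpha, at 54.3 ± 5.55 and 47.1 ± 7.25. Without 1.5 h replicate 1, 3 of the 66 were called higher and 9 lower, in a fit that called 9.11% of all genes.

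The sequence before the start of transcription was compared as a feature that the gene list did not use. RefSeq promoters (GRCm38.p6) were found for 30 of the 35 genes, with 46 starts. For 32 of the 46, bases just after the start lay in a GENCODE transcript of the gene on the same strand. The 250 bases before each start were searched on both strands for ACGTG, the core of the hypoxia response element, and for CACGTG, the E-box bound by clock and glucose-response factors, which holds ACGTG once on each strand. ACGTG occurred before 17 of 46 member starts (37.0%) and 16.6% of 32851 starts of all genes. CACGTG occurred before 6 of 46 (13.0%) and 6.02% of all. These 6 starts are among the 17 with ACGTG, so the counts are not independent. Genes with several starts, some of them overlapping, count more than once here. By gene, ACGTG occurred for 14 of 30 members (46.7%) and 18.5% of all genes, and CACGTG for 6 (20.0%) and 6.86%. Median GC content of these windows was 60.4% for members and 52.4% for all, and its part in the difference was not tested. A promoter with several matches (Ldha) and that of the member with the smallest p between the times (Pgam1) are printed for the 160 bases before the start, with matches in capitals.
Ldha, chr7:46845644-46845803, plus strand: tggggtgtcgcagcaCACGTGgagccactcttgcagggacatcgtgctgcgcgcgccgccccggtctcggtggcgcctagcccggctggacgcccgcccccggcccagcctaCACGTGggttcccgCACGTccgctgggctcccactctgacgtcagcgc
Pgam1, chr19:41911711-41911870, plus strand: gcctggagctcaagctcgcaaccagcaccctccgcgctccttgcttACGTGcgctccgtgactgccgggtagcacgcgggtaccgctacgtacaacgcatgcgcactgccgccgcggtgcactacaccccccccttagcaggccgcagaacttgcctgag
The Ldha stretch holds CACGTG 2 times, and Pgam1 holds ACGTG once, 114 bases before its start. A match is a run of letters and not a site of binding.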

How the data were processed

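Values in RPKM were made by the authors, 1 deposited table per library; per the submitters' processing notes GSNAP, HTSeq and the mouse build mm9 were used. Their versions, the annotation and the strand setting: not given in the sources used here. The unit was taken from the values: for single-transcript genes, low values times length were near whole multiples of a library's step (67.3% to 70.6% within 0.1 read, against 13.5% to 14.6% at other steps), and the step gave the depth. Members and lists were chosen with earlier results of these data known.

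The fit took genes that reached 1 RPKM in 3 or more of the libraries and was done with limma 3.58.1 in R 4.3.3 (eBayes with trend and robust) on log2(RPKM + 0.1), a scale that understates changes of low genes. Calls used a Benjamini-Hochberg adjusted p of 0.05 over 13490 genes. All members measured are named. Of other pathway lists with no call, the 2 genes with the highest mean are named. The same was done for the muscle and lens markers, with the called muscle marker added. Pdk4, Pdhx and Slc16a8 are named beside the members of their steps. Shares were compared by exact permutation. Shared windows and coding stretches came from GENCODE M21 (GRCm38) transcripts, forward strand, at loci over 5000 bases apart; 12230 tested genes (90.7%) matched by symbol. Scripts were tested on simulated data. Alternatives are given in the closing section.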

Additional observations from a re-analysis of the deposited data

How the results depend on the processing

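No member was called under any alternative except Pgam1, the 1 member called higher with the replicate block (0.71, limma adjusted p = 0.0232), without 1.5 h replicate 1 and without 1.5 h replicate 2; over all alternatives that leave out a library, 0 to 1 members were higher and none lower. The labels do not say that a shared replicate number pairs libraries, so it is not taken as a pairing. Deviations from the time means correlated at 0.347, 0.484 and −0.215 for same-numbered libraries. Those of other pairs ranged from −0.539 to 0.225. With 3 libraries per time these values cannot decide if the libraries were paired. The replicate block gave 87 genes higher and 54 lower over the whole table, against 20 and 10, and 1 other pathway gene lower (Hkdc1). Genes called higher numbered 10 with quantile normalization and 12 with median centring; genes called lower numbered 6 with a pseudocount of 0.01, 3 with a filter at 5 RPKM, 5 with quantile normalization, 18 when scaled without crystallins and 6 with median centring. Leaving out 1 library gave 0 to 663 genes higher and 2 to 556 lower, the highest of each without 1.5 h replicate 1; other pathway genes ranged from 0 to 3 higher and 0 to 9 lower, with 3 and 9 both without that library. Members without overlap, counted as an alternative added after seeing the data, ranged from 9 to 12 higher and 2 to 7 lower when 1 library was left out, where 12.2% to 18.8% of all genes were higher and 10.2% to 19.4% lower.

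Of 33 members, 22 kept the sign of their fold change in each of the 14 alternatives that tested them; Slc16a7 and Pfkfb4 were not tested with the filter at 5 RPKM. By scaling, Hk2 was 0.006 with median centring; with quantile normalization Pfkm was −0.008, Ldha −0.035 and Pdhb −0.037; scaled without crystallins, Pfkm was −0.004 and Pdhb −0.034. Leaving out 1 library gave these ranges of log2 fold change for members that changed sign: Slc2a1 −0.137 to 0.045, Slc2a3 −0.16 to 0.007, Slc2a4 −0.045 to 0.179, Hk2 −0.12 to 0.147, Pfkm −0.006 to 0.153, Pfkfb4 −0.261 to 0.054, Eno3 −0.103 to 0.347, Slc16a1 −0.383 to 0.069, Pdhb −0.101 to 0.22 and Dlat −0.251 to 0.087. Share differences (percentage points) that changed sign ranged over −1.15 to 0.504 (Slc2a1), −0.432 to 2.07 (Pfkm), −2.49 to 0.489 (Pgam2), −4.27 to 5.43 (Eno2), −5.43 to 4.26 (Eno3) and −0.132 to 1.46 (Ldhb); 4 of 10 shares kept their sign. The cause was not tested. At 2 kb, 3 reads stand for 0.0473 to 0.118 RPKM by library, and Eno1 lay under the value of its own library in 1.5 h replicate 3 (0.086 against 0.115).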
